A study of Mus musculus with 4 samples.

Results

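Genes of MHC class II antigen presentation and of dendritic cells were followed in the tibial bone marrow of obese mice with and without exercise. The 10 genes were taken by symbol from the 55401 genes of the deposited tables, with the values of all transcripts of a gene added up. They are the classical class II chains H2-Aa, H2-Ab1 and H2-Eb1, the invariant chain Cd74, the transactivator Ciita, the peptide-loading chains H2-DMa and H2-DMb1, and Cd209a, Siglech and Flt3 for dendritic cells. All 10 genes were found, and all 10 were among the 18596 genes with a mean of at least 0.1 FPKM (fragments per kilobase of transcript and per unit of library size) that were tested. Levels are given as scaled FPKM, which is the FPKM of a gene after a correction that brings the libraries to a common scale.

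Class II molecules are pairs of an α and a β chain that show peptides from endosomes to CD4+ T cells. They are made in dendritic cells, B cells and activated macrophages. The invariant chain guides the new pairs to the endosome and blocks their groove, and the DM heterodimer then exchanges its remnant for peptides. Transcription of these genes rests on the coactivator CIITA, which binds no DNA itself and docks on factors at the X and Y boxes of the promoters. Marrow holds dendritic cell progenitors, plasmacytoid dendritic cells and a large B lineage, and the Flt3 receptor drives the growth of dendritic cells from progenitors.

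The study examined 2 libraries of obese mice (Ob) and 2 of obese mice that exercised (Ob + Exe), from study groups of 9 mice each. All mice were male wild-type C57/B6 that received a high-fat diet (HFD) from 8 weeks of age, for 6 weeks before the groups were formed and throughout the intervention. Ob + Exe mice ran on a treadmill for 1 h on 6 days per week over 12 weeks, while Ob mice did not run. The labels do not say that each library came from a separate mouse, so the p-values measure only the spread between these libraries, which may be partly technical.

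The read depth on transcripts was between 44310505 and 53038186 reads of 150 bases per library, estimated from coverage. Besides bone marrow, the labels name mesenchymal stem cells and fibroblasts, and markers of blood and stromal cells were chosen after earlier values were seen to check this. S100a8 of neutrophils reached 12006 to 35688 scaled FPKM and Hba-a1 of red cells 19959 to 24142, beside Ptprc of leukocytes at 104.4 to 189.8. Of the stromal markers, Pdgfra was between 0.265 and 0.385, Pdgfrb, Prrx1 and Col1a1 lay between 0.525 and 3.13, Lepr and Thy1 between 3.11 and 8.87, and Cxcl12 of marrow stroma reached 89.3 to 143.03. The libraries thus held transcripts of both blood and stromal cells. Among all genes tested, 690, or 3.71%, passed the thresholds of the study, an unadjusted p under 0.05 together with a log2 fold change beyond 1, and such genes are named called below. After Benjamini-Hochberg adjustment no gene in limma was under 0.05, by limma voom likewise none, and 933 genes had an unadjusted p under 0.05 in limma. Of the 690 called genes, 182 were higher in Ob + Exe, which is 0.979% of all genes tested, and 508 were lower, which is 2.73%. With quantile normalization the split was 246 higher and 416 lower.

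Promoter sequences are shown for the class II genes whose start sites carry the boxes on which CIITA acts. RefSeq promoter windows of build GRCm38.p6, each of 250 bases before and 50 bases after a start site, were matched by symbol for 7 of the 10 genes, and H2-Ab1, Cd74 and Ciita had no entry. Both strands were searched for the core of the X1 box, the X2 box TGACGTCA and the Y box core GATTGG. Only the 250 bases before the RefSeq start are printed, 5′ to 3′ on the strand of the gene, with matches in capitals. In H2-Eb1 and H2-DMb1 the first run of capitals is the X1 core. H2-Aa is read from chr17:34287824-34288073 on the minus strand, H2-Eb1 from chr17:34305617-34305866 on the plus strand and H2-DMb1 from chr17:34152941-34153190 on the plus strand.
H2-Aa: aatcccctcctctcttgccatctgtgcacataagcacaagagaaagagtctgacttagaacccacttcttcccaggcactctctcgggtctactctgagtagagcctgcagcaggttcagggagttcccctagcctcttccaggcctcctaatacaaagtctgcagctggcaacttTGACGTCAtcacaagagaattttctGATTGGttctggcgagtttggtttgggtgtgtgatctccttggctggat
H2-Eb1: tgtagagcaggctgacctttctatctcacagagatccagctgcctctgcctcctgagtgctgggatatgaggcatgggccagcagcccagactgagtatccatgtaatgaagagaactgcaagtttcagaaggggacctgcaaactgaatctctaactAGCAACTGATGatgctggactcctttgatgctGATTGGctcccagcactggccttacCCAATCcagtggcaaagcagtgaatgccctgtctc
H2-DMb1: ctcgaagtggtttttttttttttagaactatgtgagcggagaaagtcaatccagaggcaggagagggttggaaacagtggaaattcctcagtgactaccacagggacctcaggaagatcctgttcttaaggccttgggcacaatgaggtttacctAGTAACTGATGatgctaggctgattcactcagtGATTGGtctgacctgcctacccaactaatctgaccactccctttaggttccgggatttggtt

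Positions of the matches count the start site as 0 and name the first base of the box. In H2-Eb1 the X1 core lay at -92 and the Y core at -60, with a second Y core on the opposite strand at -35. In H2-DMb1 the X1 core lay at -95 and the Y core at -62 of the RefSeq start site. The H2-DMb1 gene as measured here begins at 34153072, inside the printed stretch and before both boxes. These positions thus hold for the RefSeq start only. H2-Aa held the X2 box at -74 and the Y core at -49, but no match to the X1 core as searched. The X1 core occurred in 98 of 32851 promoter windows of the mouse (0.298%), the X2 box in 1.79% and the Y core in 16.1%. X1 and Y cores were found together in 18 windows, among them those of H2-Eb1, H2-DMb1 and the related chain gene H2-Eb2. The window of H2-DMa at its upstream start site, and the windows of Cd209a, Siglech and Flt3, held none of these boxes. A second H2-DMa window held a Y core at -199. Neither H2-DMa window reached 34135628, where the transcript with most of the H2-DMa value begins, so that start was not searched. A match or its lack is a description of the letters in the window only.

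None of the 10 genes was called, higher or lower, against 0.979% and 2.73% of all genes tested, and limma voom on read equivalents called none either. Their log2 fold changes of Ob + Exe against Ob lay between -0.30 and 0.79 with a median of 0.24, beside a median of -0.02 over all genes tested. Of the 10 genes, 7 were above 0 and 3 below. The groups of libraries did not overlap for 3 of the 10 genes, Cd209a, H2-DMa and Flt3, and this was the case for 32.7% of all genes tested. In 1 gene both Ob + Exe libraries were higher, as for 14% of all genes, and in 2 genes both were lower, as for 18.7%. These shares were thus near the background.

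**Figure D1:**
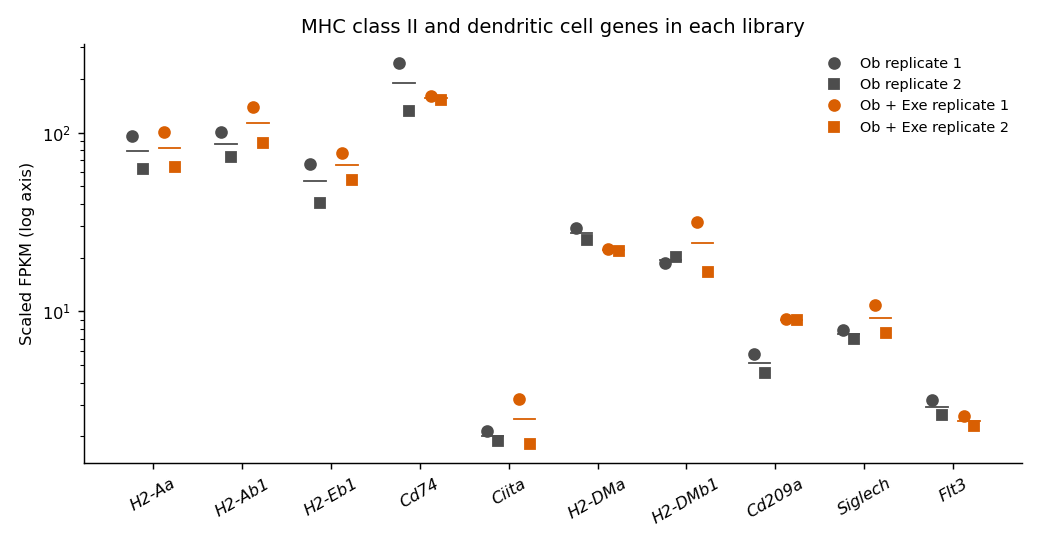
Level of each gene in each library, as scaled FPKM on a log axis, with circles for replicate 1, squares for replicate 2 and lines for group means. The distance between replicates exceeds that between group means in both groups for H2-Aa, H2-Ab1 and H2-Eb1. It does so only in Ob for Cd74 and Flt3, and only in Ob + Exe for Ciita, H2-DMb1 and Siglech. Both Ob + Exe values of Cd209a (9.02 and 8.91) lie above both Ob values (5.81 and 4.53).

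The classical chains form the surface molecule. H2-Aa (ENSMUSG00000036594.15), the α chain of I-A, is a protein-coding gene on the minus strand of chromosome 17 of GRCm38, from 34282744 to 34287823. Its scaled FPKM was 95.7 and 62.9 in Ob, compared with 100.2 and 64.6 in Ob + Exe. Each group thus had one high and one low library, and the groups overlapped. The means were 79.3 ± 23.2 (SD, n = 2) for Ob and 82.4 ± 25.2 (SD, n = 2) for Ob + Exe, and the difference was smaller than the spread between replicates. The log2 fold change was 0.05 (standard error 0.318, 95% confidence interval -0.73 to 0.84), and it turned negative without scaling, without Ob replicate 2 (-0.26) and without Ob + Exe replicate 1 (-0.27).

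H2-Ab1 (ENSMUSG00000073421.6), which encodes the β chain paired with it, lies on the plus strand of chromosome 17 from 34257689 to 34269419. It was measured at 100.5 and 73.3 scaled FPKM in Ob against 138.7 and 87.01 in Ob + Exe. The highest value was again from Ob + Exe replicate 1 and the lowest from Ob replicate 2, with overlap between the groups. Its log2 fold change of 0.36 had a standard error of 0.304 (95% confidence interval -0.40 to 1.11; adjusted p = 0.96 from limma). Leaving out Ob + Exe replicate 1 brought it to 0.02.

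H2-Eb1 (ENSMUSG00000060586.11), the β chain of I-E, is found on the plus strand of chromosome 17 from 34305867 to 34316674. The partner α chain is not made in mice of the C57BL/6 background, and H2-Ea was listed at 0 in all 4 libraries. H2-Eb1 reached 66.8 and 40.7 scaled FPKM in Ob against 76.9 and 54.5 in Ob + Exe. These values overlapped and gave a log2 fold change of 0.31 (95% confidence interval -0.47 to 1.10; adjusted p = 0.963 from limma). Without Ob replicate 2 it was -0.0555.

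For H2-Aa, H2-Ab1 and H2-Eb1 alike, the libraries stood in the order Ob + Exe replicate 1, Ob replicate 1, Ob + Exe replicate 2 and Ob replicate 2 from high to low. Added up, the chains amounted to 262.9 and 176.8 scaled FPKM in Ob, compared with 315.8 and 206.1 in Ob + Exe. The difference of 41.1 between the group means was below the SDs of 60.9 (Ob, n = 2) and 77.5 (Ob + Exe, n = 2). The difference was -1.95 without Ob replicate 2 and -13.7 without Ob + Exe replicate 1. Within Ob, replicate 1 had 1.52 times the H2-Aa of replicate 2, and within Ob + Exe 1.55 times, whereas the group means of H2-Aa differed by 1.04 times. Relative to H2-Ab1, both other chains varied less between libraries than in level. H2-Aa per H2-Ab1 was 0.953 and 0.858 in Ob against 0.723 and 0.743 in Ob + Exe, so that the groups did not overlap. H2-Eb1 per H2-Ab1 was 0.665 and 0.555 in Ob against 0.554 and 0.626 in Ob + Exe, and these groups overlapped. Both ratios were singled out after their values were seen.

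Cd74 (ENSMUSG00000024610.15) encodes the invariant chain and lies on the plus strand of chromosome 18 from 60803848 to 60812652. It had the highest level of the 10 genes, at 245.1 and 132.4 scaled FPKM in Ob, compared with 161.1 and 153.1 in Ob + Exe. Both Ob + Exe values lay between those of the Ob libraries. The log2 fold change of -0.20 (95% confidence interval -1.004 to 0.61; adjusted p = 0.976 from limma) turned to 0.24 without Ob replicate 1. Relative to the summed chains, Cd74 was at 0.932 and 0.749 in Ob against 0.510 and 0.742 in Ob + Exe. Values of Ob replicate 2 and Ob + Exe replicate 2 were nearly equal, and those of the other libraries lay on either side.

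Ciita (ENSMUSG00000022504.10), on the plus strand of chromosome 16 from 10480059 to 10528418, encodes the transactivator of the class II genes. Its level was the lowest of the 10 genes together with that of Flt3. In Ob it was 2.14 and 1.88 scaled FPKM, and in Ob + Exe 3.22 and 1.81. Ob + Exe replicate 1 was high, and the other Ob + Exe library fell below both Ob libraries. A log2 fold change of 0.26 (95% confidence interval -0.79 to 1.31; adjusted p = 0.976 from limma) resulted, which became -0.15 without Ob + Exe replicate 1. On read equivalents with limma voom it was 0.05. Dexi overlaps Ciita on the opposite strand, and the library kit is not stated to keep the strand, so reads of the overlap cannot be told apart.

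H2-DMa (ENSMUSG00000037649.10) and H2-DMb1 (ENSMUSG00000079547.4) encode the α chain and a β chain of the peptide editor, and lie on the plus strand of chromosome 17 from 34119541 to 34139101 and from 34153072 to 34160230. H2-DMa was at 29.4 and 25.2 scaled FPKM in Ob, compared with 22.4 and 21.7 in Ob + Exe. Neither Ob + Exe value reached the lower Ob value. The log2 fold change of -0.30 (95% confidence interval -0.82 to 0.21; adjusted p = 0.96 from limma) did not pass the thresholds. Levels of H2-DMb1 were 18.6 and 20.2 in Ob against 31.5 and 16.5 in Ob + Exe. Here the Ob values lay between the Ob + Exe values, and the log2 fold change was 0.23 (95% confidence interval -0.61 to 1.07; adjusted p = 0.976 from limma). It changed to -0.24 without Ob + Exe replicate 1 and to 0.69 without Ob + Exe replicate 2. The neighbour H2-DMb2 is a close copy of H2-DMb1. Of the distinct 150-base windows in H2-DMb1 transcripts, 72 of 1529 (4.71%) also occur in H2-DMb2, so a small part of the reads could belong to either gene.

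**Figure D2:**
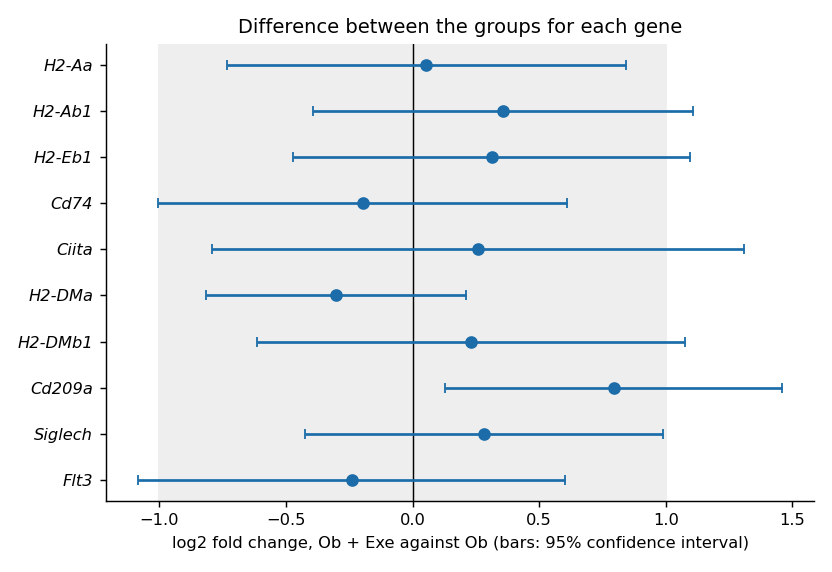
log2 fold change of each gene, Ob + Exe against Ob, with its 95% confidence interval from limma, and the range within the fold threshold in grey. Only the interval of Cd209a (0.13 to 1.46) lies on one side of 0, and no point is beyond 1.

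Cd209a (ENSMUSG00000031494.7) had the largest difference of the 10 genes. It encodes the C-type lectin CD209a of dendritic cells, including those derived from monocytes, and lies on the minus strand of chromosome 8 from 3743397 to 3748984. Its scaled FPKM was 5.81 and 4.53 in Ob against 9.02 and 8.91 in Ob + Exe, from 442 to 781 read equivalents per library. Both Ob + Exe libraries were higher, and they were nearly equal to each other. Group means of 5.17 ± 0.902 (SD, n = 2) for Ob and 8.97 ± 0.0815 (SD, n = 2) for Ob + Exe lay at a distance larger than the spread between replicates. Its log2 fold change of 0.79 (standard error 0.269, limma unadjusted p = 0.0271, adjusted p = 0.96) was within 1, so Cd209a was not called, and it ranked 510 among the 18596 genes by p. An unadjusted p under 0.05 was reached by 5.02% of all genes tested and by 1 of the 10 genes. Leaving out any 1 library gave values from 0.61 to 0.96, but the unadjusted p in limma was then above 0.05 for 3 of the 4 libraries, at 0.1003 without Ob replicate 2, 0.0787 without Ob + Exe replicate 1 and 0.072 without Ob + Exe replicate 2. It was also above 0.05 with the replicate block (0.073) and without the intensity trend (0.0521). In bulk marrow, fewer cells of a type and less RNA per cell cannot be told apart, and the same holds for higher values.

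Monocyte and macrophage markers were read beside Cd209a, since monocytes can give rise to cells with this lectin. Of 9 such markers, none was called, beside 3.71% of all genes tested. Of these markers, 3 were above 0 and 6 below, and none was at 0 in any library. Their summed level ranged from 449.2 to 519.7 scaled FPKM in Ob and from 451.2 to 520.8 in Ob + Exe. Ly6c2, the most abundant of them, had a log2 fold change of -0.05. Cd209a relative to Ccr2, the chemokine receptor of classical monocytes, was 0.106 and 0.0853 in Ob against 0.153 and 0.138 in Ob + Exe, a pair chosen after the values were seen. The marker sum was made up largely of Ly6c2, at 333.7 and 270.0 in Ob against 251.9 and 331.4 in Ob + Exe. The groups did not overlap for 55.6% of the 9 markers, against 32.7% of all genes tested. Of these, 3 were higher in Ob + Exe, Ccr2 among them, and 2 were lower. The part of monocytes in the Cd209a values was not tested.

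Siglech (ENSMUSG00000051504.18) encodes Siglec-H, a surface lectin of plasmacytoid dendritic cells, on the plus strand of chromosome 7 from 55768178 to 55778925. It was at 7.90 and 7.04 scaled FPKM in Ob, compared with 10.9 and 7.58 in Ob + Exe, with the lower Ob + Exe value inside the range of Ob. The log2 fold change was 0.28 (95% confidence interval -0.43 to 0.99; adjusted p = 0.963 from limma). Without Ob + Exe replicate 1 it was 0.02.

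Flt3 (ENSMUSG00000042817.15), the receptor kinase of dendritic cell and lymphoid progenitors, is on the minus strand of chromosome 5 from 147330741 to 147400489. Its scaled FPKM was 3.20 and 2.63 in Ob against 2.59 and 2.29 in Ob + Exe. The higher Ob + Exe value and the lower Ob value were almost the same, although the groups did not overlap. Its log2 fold change of -0.24 (95% confidence interval -1.08 to 0.60) was smaller than its standard error of 0.341. Flt3l, the ligand, was at 13.05 and 13.57 in Ob, compared with 20.3 and 9.73 in Ob + Exe, with the widest split inside the exercised group.

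The transcripts to which StringTie assigned the values were compared as shares of each gene, without a test. H2-Aa, H2-Ab1 and Flt3 rested on a single transcript for at least 93.9% of their FPKM in every library. In H2-Eb1 the transcript ENSMUST00000235530.1, of 1669 bases, held 83.5% and 80.0% in Ob but 40.0% and 65.3% in Ob + Exe. ENSMUST00000236232.1, of 1082 bases, held 7.42% and 8.15% in Ob against 43.3% and 28.9% in Ob + Exe. FPKM divides by transcript length, so a shift to a shorter transcript raises the sum for the same reads. In read equivalents, H2-Eb1 had 7063 and 4124 in Ob against 5728 and 4364 in Ob + Exe, and with limma voom on these its log2 fold change was 0.07 in place of 0.31.

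**Figure D3:**
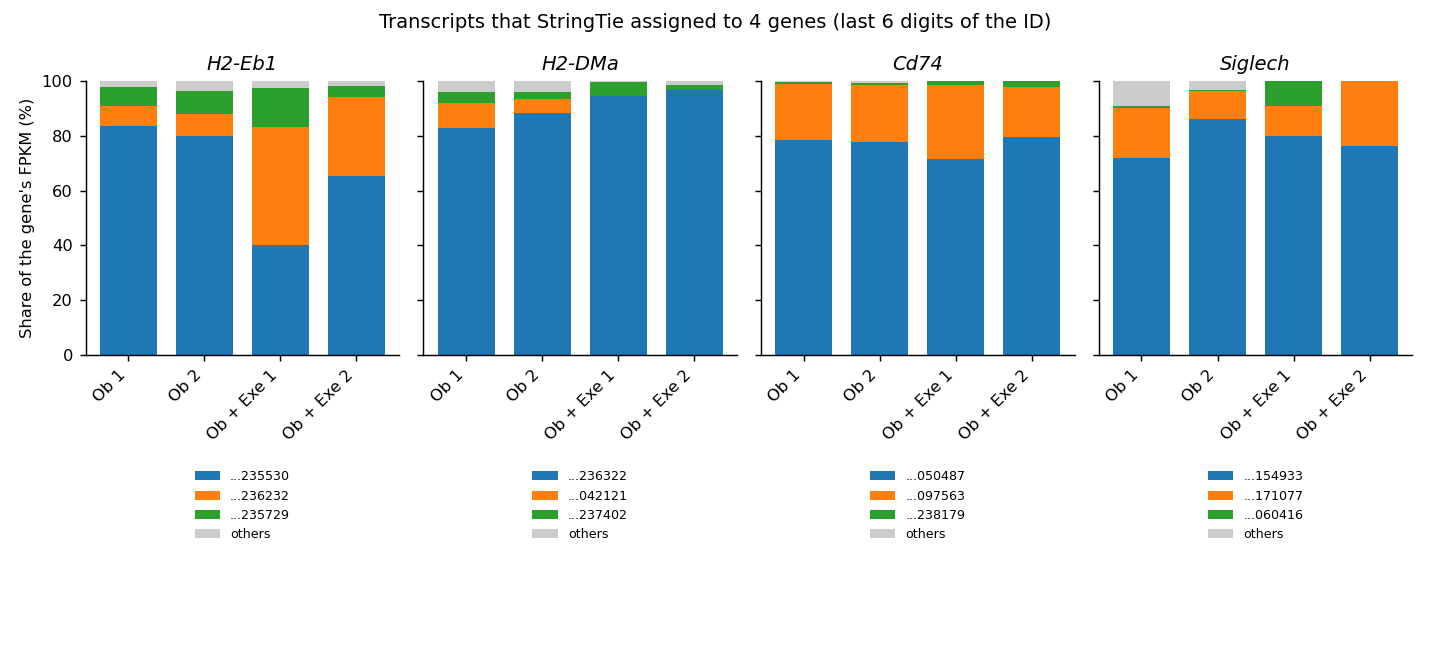
Share of each gene's FPKM, in percent, that was assigned to its 3 leading transcripts and to all others, for 4 genes in each library. The leading transcript of H2-Eb1 falls to 40.0% in Ob + Exe replicate 1, and the transcript of H2-DMa shown in orange is listed at 0 in both Ob + Exe libraries.

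For H2-DMa, ENSMUST00000042121.10, which begins at the upstream start at 34122832, made up 9.13% and 4.95% in Ob and was listed at 0 in both Ob + Exe libraries. Most of the value came from ENSMUST00000236322.1, which begins at 34135628, with 83.0% and 88.3% in Ob, compared with 94.5% and 96.9% in Ob + Exe. Brd2 overlaps the upstream end of H2-DMa on the opposite strand, and 201 of 4143 windows of 150 bases in H2-DMa transcripts (4.85%) also occur in Brd2. Opposite-strand genes overlap Flt3 (Gm26597) and H2-Eb1 (Gm20513) as well, each below 0.5 scaled FPKM in every library. Cd74 makes a longer form with an added exon of 192 bases, annotated from 60811294 to 60811485 on chromosome 18, that encodes a protease inhibitor domain. This form took 20.5% and 20.8% of Cd74 in Ob against 26.9% and 18.4% in Ob + Exe, so the groups overlapped.

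Ciita is known to start from separate promoters, of which the most upstream is used in dendritic cells, the next in B cells and the last after interferon-γ. Its annotated transcripts fell into 3 groups of start sites, at 10480059 to 10480164, at 10488178 to 10488279 and at 10489746 to 10489783. The middle group held 75.04% and 70.03% of Ciita in Ob, compared with 77.9% and 76.8% in Ob + Exe. The upstream group held 13.1% and 21.5% in Ob, 4.63% in Ob + Exe replicate 2, and was listed at 0 in Ob + Exe replicate 1. The most downstream group held 11.8% and 8.43% in Ob against 22.1% and 18.5% in Ob + Exe. In Ob + Exe this last share came from ENSMUST00000230392.1 alone, a transcript of 2 exons with 67 and 30 read equivalents. For none of the 3 start groups did the shares overlap between Ob and Ob + Exe, but they are parts of 1 whole and not independent. The levels of 32.7% of all genes tested did not overlap either, and no such share was counted for start groups. With a gene level near 2 to 3 FPKM, from 506 to 830 read equivalents spread over 8 transcripts, such shares are rough.

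Other genes of the class II pathway were read from a list of 32 symbols, of which 29 were found and 28 tested. None of them was called, none had an unadjusted p under 0.05 in limma, and limma voom called none either, beside 3.71% called over all genes. Their log2 fold changes ran from -0.56 to 0.60, with 17 above 0 and 11 below and a median of 0.11. The groups did not overlap for 9 of them (32.1%), again near the 32.7% of all genes. In peptide loading, H2-Ob of the DO heterodimer, which restrains DM, was at 26.7 and 25.7 scaled FPKM in Ob against 33.3 and 27.2 in Ob + Exe (log2 fold change 0.20). The lysosomal protease gene Ctsb was the most abundant of its group, with a log2 fold change of 0.20.

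Among the factors that bind the X and Y boxes, Nfya of the Y box complex was at 26.1 and 27.4 in Ob, compared with 41.9 and 29.2 in Ob + Exe (log2 fold change 0.39). In the interferon-γ route, the receptor gene Ifngr1 was the most abundant, with a log2 fold change of -0.13. Marchf8, a ubiquitin ligase that removes surface proteins, had -0.15, and the costimulatory ligand gene Cd86 had 0.23. H2-Eb2, a little expressed chain gene, had 0.60 at levels between 0.499 and 1.63 scaled FPKM. None of these groups of genes thus showed a called member.

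**Figure D4:**
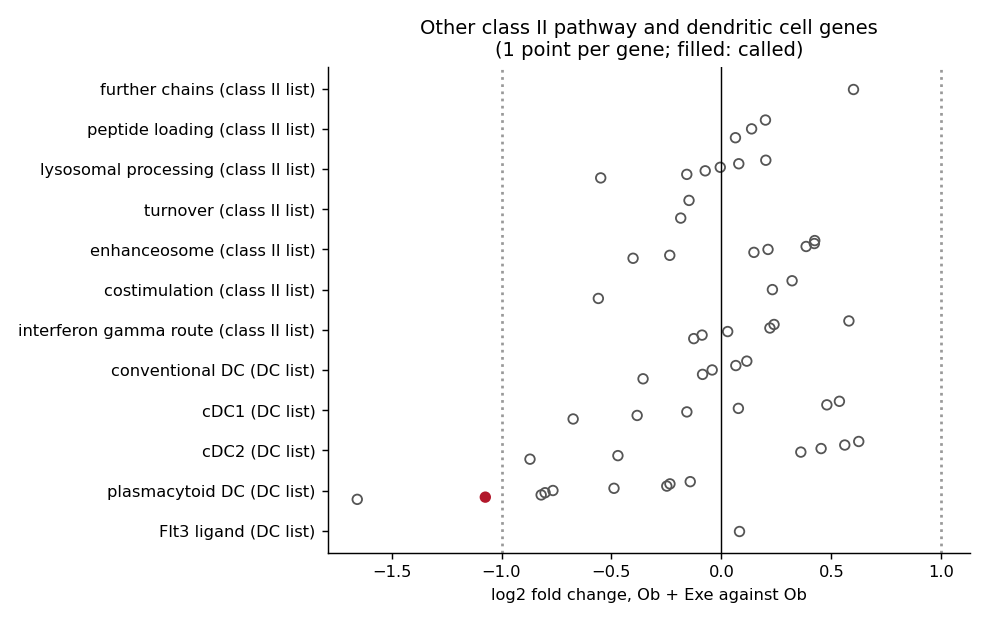
log2 fold change, Ob + Exe against Ob, of the other class II pathway and dendritic cell genes, with 1 point per gene and dotted lines at the fold threshold. The 9 plasmacytoid genes all lie below 0, though the groups of libraries did not overlap for only 3 of them. The single filled point, a called gene, is Ly6d at -1.07, and the open point below it is Cox6a2, which was not called.

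The list of other dendritic cell genes held 27 genes, and all 27 were tested. Of these, 10 were above 0 and 17 below with a median of -0.16, and 1 was called, beside 3.71% over all genes. The called gene was Ly6d, a surface protein of plasmacytoid dendritic cells and of early B lineage cells. It fell from 55.9 and 39.9 scaled FPKM in Ob to 17.5 and 28.6 in Ob + Exe, with no overlap (log2 fold change -1.07, standard error 0.318, adjusted p = 0.96 from limma). The call was lost without Ob replicate 1, without Ob replicate 2, without Ob + Exe replicate 1 and without the intensity trend.

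All 9 plasmacytoid genes of this list had log2 fold changes below 0, with a median of -0.77, while Siglech was above 0. The groups did not overlap for 3 of the 9 (33.3%), all lower. Over all genes tested this held for 32.7% in either direction and for 18.7% as lower. For Pacsin1 and Cox6a2, as for Bst2, Ob + Exe replicate 1 lay above both Ob libraries. Bst2, the most abundant, was at 39.1 and 45.5 in Ob against 56.6 and 15.9 in Ob + Exe, so the libraries of the exercised group stood on both sides of Ob. Spib, a transcription factor of plasmacytoid and B cells, was at 17.8 and 18.0 in Ob, compared with 12.5 and 8.78 in Ob + Exe (log2 fold change -0.77, adjusted p = 0.96 from limma), and was picked after its value was seen. Without Ob + Exe replicate 1, the genes Bst2, Cox6a2, Pacsin1 and Spib were called as lower. None of these was called with all 4 libraries, in which Cox6a2 was listed at 0 in Ob + Exe replicate 2. Without Ob + Exe replicate 2, Ly6d was called lower and Clec10a and Itgae higher.

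None of the genes of conventional dendritic cells was called, beside 3.71% of all genes tested. Itgax, which encodes CD11c, had a log2 fold change of 0.07, and Id2, the most abundant of the cDC1 group, had 0.08. Id2 does not stand for that group, in which 3 genes were above 0 and 3 below, from -0.67 to 0.54. In the cDC2 group, 4 of 6 genes were above 0. Its most abundant gene, Sirpa, was at 68.7 and 66.2 scaled FPKM in Ob against 93.6 and 91.3 in Ob + Exe (log2 fold change 0.45, adjusted p = 0.96 from limma). Both Ob + Exe libraries were higher, though Sirpa is also expressed by other myeloid cells. In the same group Klf4 was at 9.39 and 10.3 in Ob, compared with 5.21 and 5.47 in Ob + Exe (log2 fold change -0.87, adjusted p = 0.96 from limma), and was named after its value was seen. The cDC2 genes therefore did not move one way.

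B cells also make class II molecules, and their markers were read beside the chains. Of 9 mature B cell markers, 8 were below 0, and Cd79a, a signaling chain of the B cell receptor, was called as lower, as were 2.73% of all genes tested. It fell from 48.3 and 44.6 scaled FPKM in Ob to 21.6 and 23.4 in Ob + Exe (log2 fold change -1.04, standard error 0.198, adjusted p = 0.943 from limma). Cd79b, the most abundant mature marker, was at 69.6 and 63.0 in Ob against 57.1 and 45.2 in Ob + Exe. All 9 B precursor markers were below 0, and Igll1 and Vpreb2 of the surrogate light chain were called as lower, against the same 2.73%. Igll1 fell from 14.36 and 12.96 to 4.998 and 3.52 (log2 fold change -1.68, standard error 0.285, adjusted p = 0.943 from limma), and Vpreb2 was at 1.63 and 0.814 in Ob against 0.267 and 0 in Ob + Exe. Vpreb3, the most abundant precursor marker, was at 48.5 and 52.5 in Ob against 32.9 and 31.3 in Ob + Exe, without reaching the fold threshold.

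**Figure D5:**
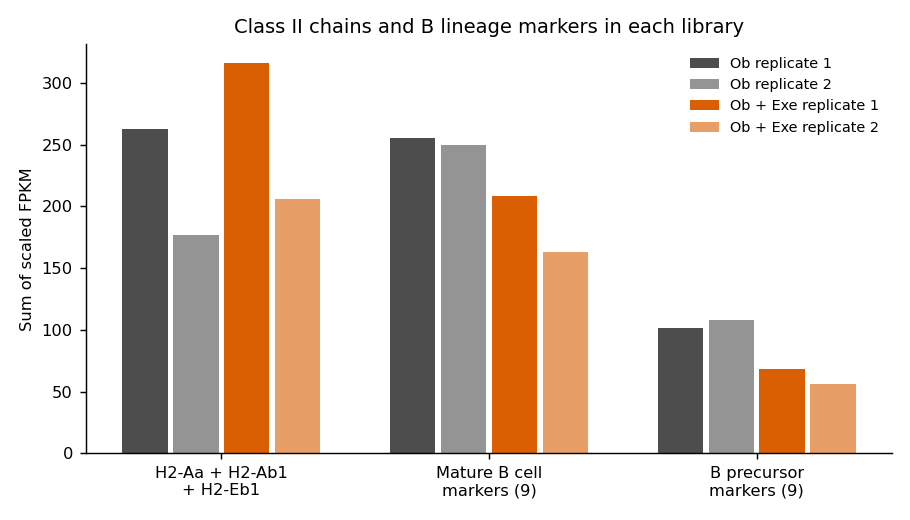
Sum of scaled FPKM in each library for the 3 classical class II chains and for 9 mature B cell and 9 B precursor markers. Both B lineage sums are lower in both Ob + Exe libraries, whereas the chain sum is highest in Ob + Exe replicate 1 and lowest in Ob replicate 2.

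The mature B marker sum ranged from 249.5 to 255.3 in Ob and from 162.9 to 208.7 in Ob + Exe, and the B precursor sum from 101.2 to 108.2 and from 55.9 to 68.4. The summed chains overlapped between the groups, as given above. The part of the B lineage in the class II values was not tested.

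Among other cell types, none of 9 T and NK cell, 10 neutrophil, 9 erythroid and 5 plasma cell markers was called, beside 3.71% of all genes tested. Neutrophil sums, led by S100a8, ran from 27353 to 47616 scaled FPKM in Ob and from 35194 to 63102 in Ob + Exe, and erythroid sums, led by Hbb-bs, from 73234 to 73274 and from 54412 to 81422. Plasma cell markers, of which Jchain was the most abundant and Tnfrsf17 was at 0 in Ob + Exe replicate 1, summed to 204.8 to 383.9 in Ob, compared with 318.6 to 417.3 in Ob + Exe. T and NK cell markers, led by Nkg7, summed to 41.3 to 73.3 and to 49.5 to 75.8. In this last list, as in the class II chains, replicate 1 was higher than replicate 2 in both groups. The same order held for the mature B sum (255.3 and 249.5 in Ob, 208.7 and 162.9 in Ob + Exe). It also held for the sum of the 9 plasmacytoid genes (131.2 and 120.6 in Ob, 103.7 and 65.1 in Ob + Exe). The neutrophil, erythroid, plasma cell, monocyte and B precursor sums did not keep this order in both groups. The part of these cell types in the class II values was not tested.

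The genes closest in pattern to the mean of H2-Aa, H2-Ab1, H2-Eb1 and Cd74 were sought over the 4 libraries among 12395 genes of mean FPKM 1 or more. Likeness was the root mean square distance between log2 deviations from each gene's mean. The 8 closest genes were Alg9 (distance 0.0368), Rps15a, Rpl27-ps3, Rhobtb2, Fdps, Zfp637, Bace1 and Tiam1 (0.0535). H2-Aa, itself part of that mean, was at 0.0727, and Cd209a, the farthest of the 10 genes, at 0.384. Cd74, also part of the mean, was at 0.229, farther than Siglech (0.193) and Ciita (0.218), so it did not share the pattern closely. The likeness is a description only.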

How the data were processed

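RNA-seq tables of 4 marrow libraries were used. The authors removed poor reads with fastp and then rRNA reads, aligned to GRCm38 with HISAT2, filtered with SAMtools and ran StringTie on GENCODE vM25. Tool versions are not given in the sources used here. The deposited columns are FPKM, normalized by the authors for length and library size, and coverage, a signal left without normalization. Read equivalents are coverage times length over 150 bases.

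FPKM was summed per gene, and genes with a mean of at least 0.1 were kept. Values were scaled with median-of-ratios factors (0.949 to 1.03) from genes with a mean of at least 1. The log2(FPKM + 0.1) values entered limma 3.58.1 under R 4.3.3 (intensity trend, 2 residual and 3.73 prior degrees of freedom), after a test on simulated data. Fold changes are on this scale, which understates changes of low genes. The authors' own test, DESeq2, needs counts. Gene types and exons came from GENCODE vM21, which held all 10 genes. Python 3.11.15, pandas 2.3.3 and matplotlib 3.10.9 were used.

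The members and gene lists were chosen with earlier results of these data known. Genes were named by rule: the 10 members, every called gene of a list, the most abundant gene of each group of a list and the 8 genes nearest in pattern. Others are marked as chosen after their values were seen. Replicate numbers come from the labels. Differences of same-numbered libraries had a correlation of -0.106 over genes, so no pairing was modelled. Alternatives were other pseudocounts, filters and scalings, limma voom, no trend, a replicate block and leaving out libraries. Each of the 10 genes had at least 442 read equivalents per library.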

Additional observations from a re-analysis of the deposited data

How the results depend on the processing

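No alternative, and no library left out, called any of the 10 genes or any other class II pathway gene. Over all genes, 224 were called with a pseudocount of 1, 450 with limma voom on read equivalents and 1061 without the intensity trend, against 690. A minimum mean FPKM of 1, which left 12409 genes tested, gave 267. Without single libraries the count ranged from 746 to 1924, with 1264 without Ob + Exe replicate 1 and 1924 without Ob + Exe replicate 2. Called dendritic cell genes of the other list numbered 0 without the intensity trend, and 0 to 4 without single libraries, against 1.

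Under alternatives other than leaving out a library, 98 log2 fold changes of the 10 genes kept their sign and 2 did not. The filters, the fit without the trend, the replicate block and the crossed pairing given below left all these fold changes as they were. Their signs were thus fixed in advance, and only the other pseudocounts, the scalings and limma voom could change a sign. H2-Aa turned to -0.0292 without scaling and to -0.0125 with limma voom. With single libraries left out, 34 log2 fold changes kept their sign and 6 did not. The ranges were -0.27 to 0.36 for H2-Aa, 0.02 to 0.68 for H2-Ab1, -0.0555 to 0.66 for H2-Eb1, -0.65 to 0.24 for Cd74, -0.15 to 0.65 for Ciita, -0.24 to 0.69 for H2-DMb1, 0.02 to 0.53 for Siglech and 0.61 to 0.96 for Cd209a. The difference in summed chains ranged from -13.7 to 95.9. Groups did not overlap for 3984 genes at a minimum mean FPKM of 1, against 6085. The lower count is over fewer genes, since that filter left 12409 tested in place of 18596. The cause of the changes in fold changes and summed chains was not tested.

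The replicate block leaves fold changes as they are. With it, calls numbered 776, 28 genes passed an adjusted p of 0.05 in limma, and no call changed among the 10 genes or either of the other class II and dendritic cell lists. Same-numbered libraries share only a number, with a correlation of -0.106. A crossed pairing, added after seeing the data, gave 782 calls, of which none was among the 10 genes. Over all alternatives the unadjusted p of Cd209a in limma ranged from 0.015 to 0.1003, and its adjusted p from 0.406 to 1.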
